A study of Xenopus laevis with 24 samples.

Results

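Proteins are destroyed and folded by a small set of ancient machines that every embryonic cell runs. The proteasome degrades ubiquitin-tagged proteins: its 20S core holds the proteolytic chamber behind gated rings of alpha subunits, and its 19S regulatory particle removes the ubiquitin and threads the substrate in with a ring of ATPases. Chaperones of the HSP70 and HSP90 families fold and hold client proteins with DnaJ (HSP40) partners, the CCT and HSP60 chaperonins fold proteins inside a cage in the cytosol and in mitochondria, and heat shock factors (HSFs) switch on the stress-inducible members.

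The records described here are those of the deposited expression table whose description names a proteasome, heat shock, a chaperonin, T-complex protein or DnaJ, and whose mean was at least 1 FPKM (fragments scaled to transcript length and to the mapped fragments of the library) over all libraries. The rule read descriptions and mean levels and no difference between groups. It met 55 of the 31306 GenBank records, and 46 of them reached the mean: 12 proteasome records and 34 chaperone and heat shock records, of 19635 records in all at that level. Just inside the limit were a DnaJ record (GenBank number 50415467) with a mean of 1.19 FPKM and an hsp30 record with 1.32 FPKM, and just outside were heat shock protein 47 with 0.555 FPKM and a 27kDa heat shock protein family record with 0.502 FPKM. The other records below the limit were a proteasome theta chain, a DnaJ domain clone, heat shock cognate 70.II, hsp27 and 3 further hsp30 records. Many descriptions end at their first comma, so that 6 proteasome records, 4 of the 6 CCT records and most DnaJ records do not say which subunit or family member they are, and these are told apart below by their GenBank numbers.

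The libraries came from whole *Xenopus laevis* gastrulae at stage 10.5, each made from a pool of 5 embryos raised in dishes of 25. From cleavage stages on, the embryos had grown in TTNPB, which activates the retinoic acid receptors (RARs), in AGN193109, an inverse agonist that lowers their basal activity, each at 1 µM, or in vehicle alone (ethanol at 0.1%). There were 24 libraries, 8 of each exposure, split evenly between clutch D and clutch E. The labels do not say which pools shared a dish and there are 2 sibships, so the p-values below measure the spread between pools. Of the gastrula markers, brachyury had a mean of 131 FPKM, chordin 63.3, SOX3 184 and goosecoid 7.22 FPKM. Of the markers of tissues not yet formed, alpha-globin was listed at 0 in every library. The highest of these means were 1.73 FPKM for a cardiac troponin C record and 1.37 for slow troponin I. The stage is that of the labels, which these levels alone do not fix.

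FPKM carry no read counts, so the depth of the libraries is unknown. One library, AGN193109 replicate 4E, stood apart: the median of its tested records was 2.77 FPKM, and the remaining 23 lay at 4.23 to 5.76. The summed FPKM of the 34 chaperone records was 830 in that library and 1699 to 2236 in the others, and the summed proteasome records were at 102 against 173 to 320. Differences between exposures that this library moves by over 1.5 times or across the threshold are given with and without it where the text names them. The libraries also fell into 2 ranges of total FPKM, 636467 to 729879 and 801545 to 1011840, and 4 of the 12 clutch D libraries but 10 of the 12 clutch E libraries were in the lower range.

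The chaperones of unstressed cells were among the most abundant transcripts of the gastrula, and the proteasome records lay lower. Heat shock 90kDa protein beta ranked 72nd of all 31306 records by mean FPKM. This record is taken here as the constitutive cytosolic HSP90, which its description does not state. Its lowest, median and highest values were 421, 446 and 639 FPKM in vehicle libraries, 318, 495 and 566 with TTNPB, and 146, 481 and 539 with AGN193109, where the lowest was replicate 4E. The groups overlapped almost completely. A DnaJ record (27503356) followed with a mean of 312 FPKM, and heat shock cognate protein 70 (HSC70, the constitutive cytosolic HSP70) with 273 FPKM. HSC70 was at 216, 264 and 301 FPKM in vehicle, 246, 278 and 340 with TTNPB and 192, 277 and 309 with AGN193109, again with replicate 4E lowest. A clone similar to HSC71 had a mean of 187 FPKM and a second HSC70-like record 84.5 FPKM. Reads shared between such near-identical records, or between the L and S copies of a gene, can be split unevenly, so the level of 1 record is less certain than that of the family.

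**Figure D1:**
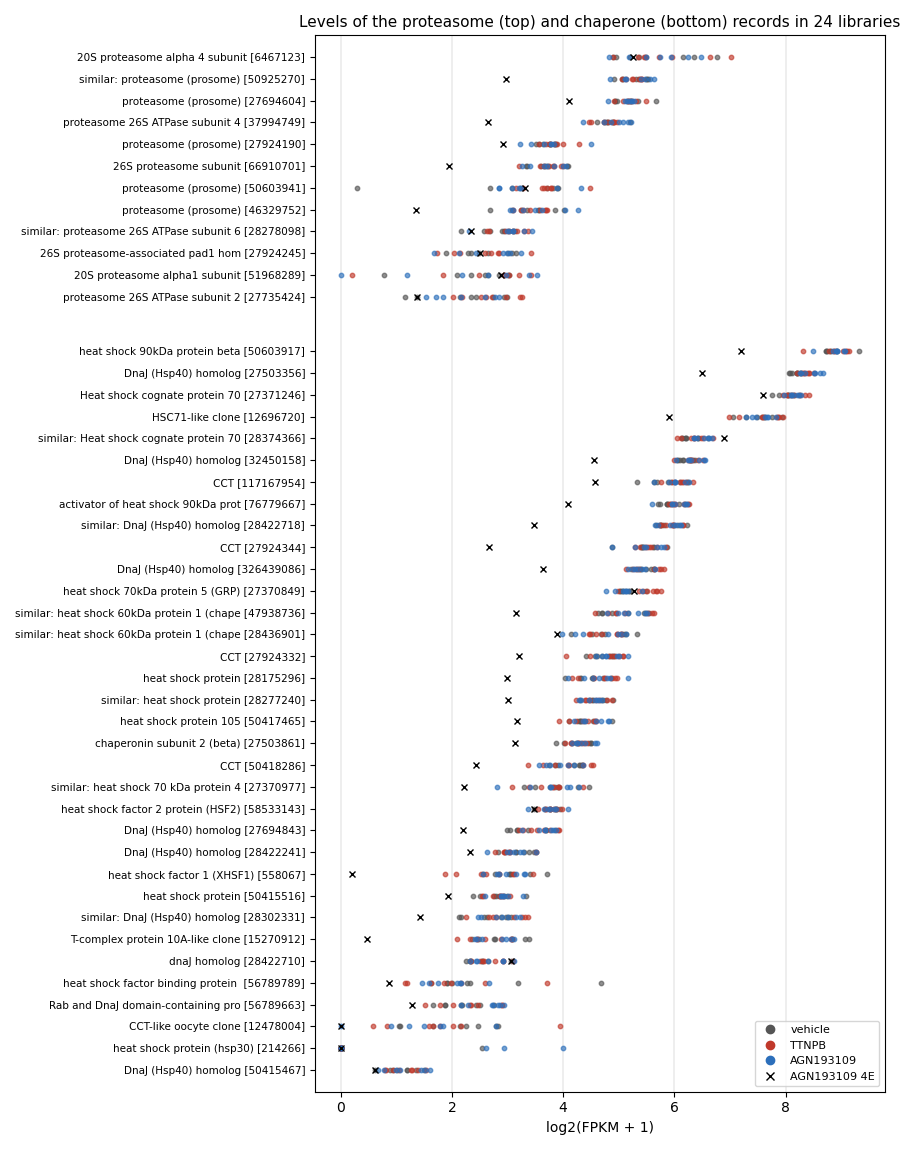
Level of each member record in each of the 24 libraries as log2(FPKM + 1), with proteasome records above and chaperone records below, each block ordered by mean, GenBank numbers in brackets and AGN193109 4E as a cross. HSP90 beta, a DnaJ record and HSC70 are highest, and the means of the proteasome records run from 4.52 to 56.4 FPKM. The cross is the lowest value in 34 of 46 rows, though for the CCT-like oocyte clone it coincides with AGN193109 2E on this scale.

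Below these, the endoplasmic reticulum HSP70 (HSPA5 or BiP, described as a glucose-regulated protein) had a mean of 37.8 FPKM. The activator of HSP90 ATPase homolog 1, a co-chaperone that speeds HSP90's cycle, was at 61.2 FPKM. The 2 HSP60 records, the mitochondrial chaperonin, were at 33.95 and 26.3 FPKM, and the 2 HSP110 family records, nucleotide exchange factors of HSP70, at 20.2 (heat shock protein 105) and 12.9 FPKM (similar to heat shock 70 kDa protein 4). The CCT chaperonin folds actin and tubulin and holds each of its subunits once in each ring. Its 6 records ran from 2.99 to 61.5 FPKM, a 20.6-fold range on this per-length scale. The low end was the CCT-like oocyte clone alone, listed at or near 0 in AGN193109 2E and 4E. The next lowest CCT record had a mean of 15.4 FPKM. The 10 DnaJ records were wider still, from 1.19 to 312 FPKM.

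The transcription factors of the heat shock response lay well below the abundant chaperones, though above the median record mean of 5.18 FPKM over all tested records. HSF1, the main stress-activated factor, had a mean of 6.56 FPKM and HSF2 12.6 FPKM. HSF2 was one of the steadiest members: it was at 10.2, 13.0 and 14.4 FPKM in vehicle, 10.7, 12.6 and 14.7 with TTNPB and 9.34, 12.4 and 16.03 with AGN193109. The groups overlapped throughout. HSF-binding protein 1, which binds and restrains HSF1, was uneven: it was at 24.7 FPKM in vehicle 2D and 12.04 in TTNPB 2D, and at no more than 8.14 FPKM in the other 22 libraries.

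The 1 record of hsp30 that reached the limit (214266), of a small heat shock protein that is heat-inducible in *Xenopus*, was listed at exactly 0 in 20 of the 24 libraries. It was at 4.83 FPKM in vehicle 2E, 6.64 in AGN193109 2D, 5.08 in AGN193109 2E and 15.0 in AGN193109 3E. All 8 TTNPB libraries were listed at 0 for this record, so no fold is given for them. Its AGN193109 difference from vehicle on log2(FPKM + 1), 0.87 ± 0.51 (SE), did not pass (limma, adjusted p = 0.676, and 0.354 without 4E). The record reached the mean of 1 FPKM through its AGN193109 values, so this difference is not independent of the rule that chose it. Other hsp30 records, under the limit, were not all at 0 with TTNPB: record 214268 was at 1.39 FPKM in TTNPB 3D, and hsp30c at 0.207 in TTNPB 4E.

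Among the proteasome records the alpha 4 subunit of the 20S core was highest, with a mean of 56.4 FPKM, while alpha 1, from the same ring, had 5.33 FPKM. The ring holds alpha subunits in equal number, and the means of these 2 records differed 10.6-fold per length. Over the 24 libraries alpha 4 ran from 27.4 to 129 FPKM and alpha 1 from 9.51e-06 to 10.6. The ratio thus rests on 2 variable records, and reads split unevenly between gene copies could alter it. The gene psma6.S, by its symbol an alpha subunit but outside the rule, had a mean of 19.97 FPKM. Whether it is a different subunit from these 2 records or a copy of one was not determined. Whether the ring's subunits differ to this extent was not tested. Of the 19S ATPases, which unfold the substrate, subunit 4 was at 26.98 FPKM, subunit 6 at 6.81 and subunit 2 at 4.52 FPKM. The Pad1 homolog, the 19S enzyme that removes ubiquitin chains, was at 5.34 FPKM. The 6 records of unstated subunit had means of 10.1 to 37.2 FPKM.

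Over the 23 libraries other than 4E, exposures and clutches mixed, the coefficient of variation (SD over mean) had a median of 19.04% for chaperone records, 26.2% for proteasome records and 31.3% for all tested records. The steadiest member was HSC70 at 10.3%. The least steady were hsp30 at 258% and HSF-binding protein 1 at 111%. These records sit at different mean levels from the table as a whole, and the medians are not matched for level.

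The first comparison asked whether activating the RARs changes these machines before and during early gastrulation. With TTNPB, 0 of 46 members differed from vehicle (limma on log2(FPKM + 1), adjusted p under 0.05 over all tested records), where 0.830% of all tested records passed. Both agents and their direct comparison share libraries, so the comparisons are not independent of each other. At an unadjusted p under 0.05 there were 0 of 12 proteasome and 1 of 34 chaperone records, against 1158 of 19635 in all. The median log2 difference was 0.06 for the proteasome, 0.05 for chaperones and 0.01 for all tested records. In whole embryos fewer cells that express a gene and less of its RNA per cell cannot be told apart. For 11 of 12 proteasome and 30 of 34 chaperone records the 95% interval lay inside a 2-fold change of FPKM + 1 either way. For 8 and 24 of them it lay inside 1.5-fold. For records of low level such a bound allows a larger fold in FPKM itself. These intervals are for single records and are not adjusted over all tested records. The median SE was 0.21 for proteasome and 0.19 for chaperone records, so a change within these bounds could miss the threshold.

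BiP, the chaperone of the endoplasmic reticulum that receives new secretory proteins, was the member nearest to a call. It was at 31.4, 33.4 and 44.0 FPKM (lowest, median, highest of 8) in vehicle and 30.7, 46.1 and 53.2 with TTNPB. Of the 8 TTNPB libraries, 6 lay between 42.3 and 53.2 FPKM, replicate 3E was at 40.2 and replicate 2D at 30.7, and in vehicle 7 lay between 31.4 and 35.9 and replicate 3D at 44.0. The means were 34.6 ± 4.15 and 44.9 ± 7.26 FPKM (SD, n = 8 each), a log2 difference of 0.36 ± 0.12 (SE) that did not pass (limma, adjusted p = 0.32; without AGN193109 4E, 0.11). Of 2 further records described as BiP, outside the rule by their wording, one differed by 0.35 ± 0.14 (adjusted p = 0.542), and the other by 0.10 ± 0.22 (adjusted p = 0.999).

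In the direct comparison of agonist and inverse agonist, AGN193109 libraries had BiP at 26.1, 33.8 and 41.9 FPKM. The difference was 0.39 ± 0.12 in log2 (adjusted p = 0.146). Without AGN193109 4E it was 0.42 and just inside the threshold (adjusted p = 0.0499), as 1 of 34 chaperone records where 1.50% of all tested records passed. It also passed without TTNPB 2D (adjusted p = 0.0264), and over the 37 alternatives the adjusted p ran from 0.0145 to 0.806.

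X-box binding protein 1 (*xbp1*), a transcription factor of the unfolded protein response that acts on endoplasmic reticulum genes, is no member but was 1 of 2 records on a list of that response; the other, an ATF4 record, differed from vehicle by 0.16 ± 0.21 with TTNPB. It was at 28.3, 32.6 and 40.9 FPKM in vehicle, 41.4, 45.4 and 50.6 with TTNPB and 17.7, 32.7 and 34.7 with AGN193109. Every TTNPB library was above every library of the other groups, at the nearest by 41.4 against 40.9 FPKM in vehicle. This record was chosen after its values were seen, and how many of all tested records separate the exposures in this way was not counted. The difference from AGN193109 was 0.60 ± 0.12 (limma, adjusted p = 0.00537), and it passed in 33 of 37 alternatives, not with only the compared groups, either clutch alone or clutch means as replicates. The difference from vehicle was 0.46 ± 0.12 (limma, adjusted p = 0.0776, and 3.69e-04 without AGN193109 4E), which passed in 6 of 37 alternatives. These were quantile and upper-quartile scaling, and fits that did not hold AGN193109 4E: only the compared groups, only the lower totals, and those leaving it out. That library is in neither group of this comparison but enters the shared estimate of the spread. The difference from vehicle did not pass in either clutch alone.

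Of the 7 other endoplasmic reticulum folding and translocation records, none passed with all libraries. All 7 were above 0 for TTNPB against vehicle, 6 of 7 after upper-quartile scaling. The list was drawn up with earlier results of these data known and repeats calnexin and calreticulin, so these signs cannot be counted as independent. Their median log2 difference was 0.16, against 0.01 for all tested records, and they ranged from 0.01 for a glucose regulated protein record to 0.31. The highest was Sec61 alpha 1, the channel through which proteins enter this compartment, at 0.31 ± 0.19 (limma, adjusted p = 0.998). Sec61 alpha 1 passed in 4 of 37 alternatives, among them without AGN193109 4E (limma, adjusted p = 0.0137), and in neither clutch alone. All 4 were fits that did not hold AGN193109 4E. That library is in neither group of this comparison but enters the shared estimate of the spread. A record similar to calnexin, a lectin chaperone there, had medians of 104.5 FPKM in vehicle and 119 with TTNPB, a difference of 0.26 ± 0.14 (adjusted p = 0.918; without 4E, 0.0989). The other calnexin record had medians of 36.3 and 36.6 FPKM, a difference of 0.04 ± 0.14.

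**Figure D2:**
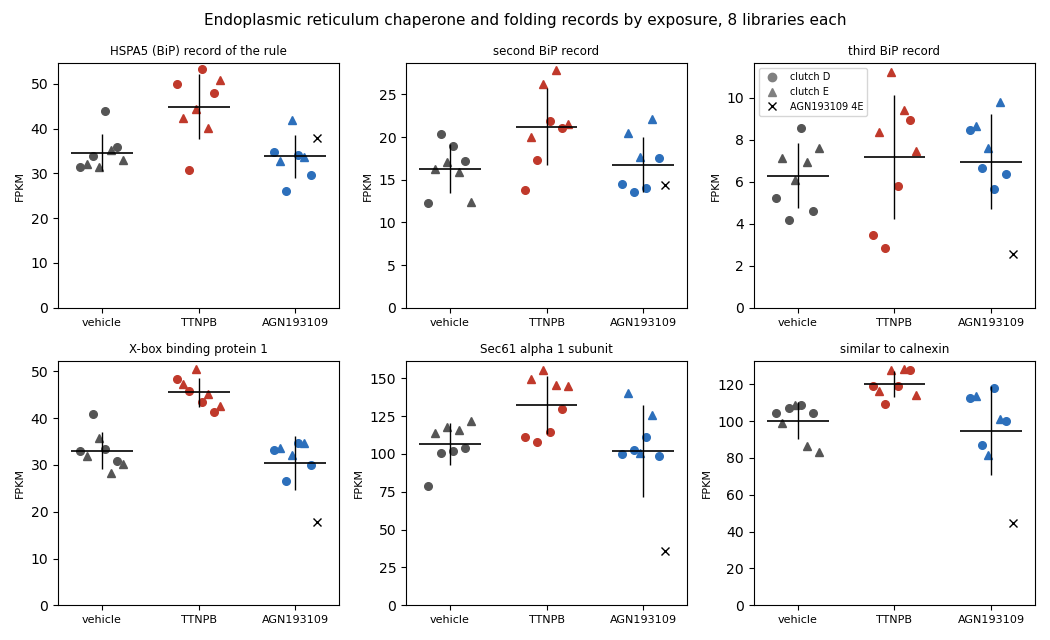
FPKM of BiP, 2 further BiP records, X-box binding protein 1, Sec61 alpha 1 and a record similar to calnexin in each of 8 libraries per exposure (circles clutch D, triangles clutch E, cross AGN193109 4E; bars are mean and SD of all 8). The 8 TTNPB values of X-box binding protein 1 start at 41.4 FPKM, above the highest vehicle value of 40.9, while those of the BiP record overlap vehicle: vehicle 3D lies above TTNPB 1E, 2D and 3E.

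The remaining members moved little with TTNPB. The highest proteasome differences were 0.60 ± 0.32 (SE) for record 50603941, of unstated subunit, and 0.42 ± 0.28 for ATPase subunit 2, and the lowest were -0.07 ± 0.18 for the Pad1 homolog and -0.07 ± 0.22 for ATPase subunit 4. Vehicle 4D, at 0.222 FPKM for record 50603941 where the other vehicle libraries of clutch D had 5.45 to 8.39, carried much of the first: without it the differences were 0.24 for that record and 0.27 for ATPase subunit 2. After BiP the highest chaperone difference was 0.26 ± 0.22 for a DnaJ-like record (28302331), and the lowest were -0.45 ± 0.34 for HSF-binding protein 1 and -0.35 ± 0.33 for HSF1. Without vehicle 2D the former was -0.18, and without TTNPB 2D the latter was -0.23. None passed, and the lowest adjusted p among proteasome records was 0.905. HSP90 beta differed by 0.03 ± 0.20 and HSC70 by 0.13 ± 0.11. Of the 10 DnaJ records 9 were above 0, with a median of 0.10. For AGN193109 against vehicle 6 of them were above 0 with all libraries (median 0.004) and 8 without 4E (median 0.18).

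**Figure D3:**
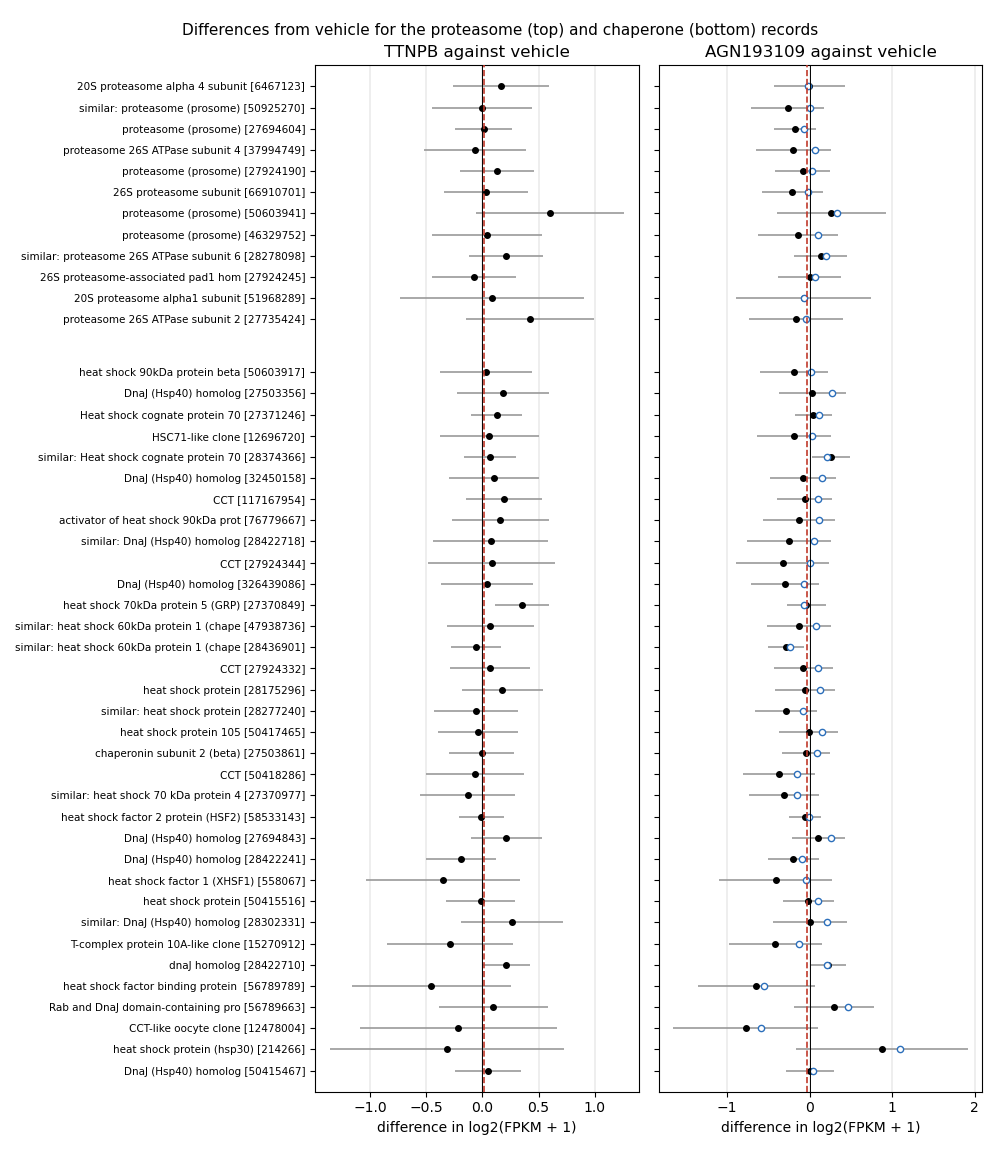
Difference in log2(FPKM + 1) from vehicle with its 95% interval for each member under TTNPB (left) and AGN193109 (right), proteasome records above and chaperone records below. Open circles on the right are without AGN193109 4E and the dashed line is the median of all tested records; no member passed in either comparison, and the open circles lie to the right of most filled ones.

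Lowering RAR activity with AGN193109 likewise left every member under the threshold: 0 of 46 passed, where 0.0204% (4 records) of all tested records did. At an unadjusted p under 0.05 there were 0 proteasome and 3 chaperone records, against 1633 in all. The medians were -0.11 for the proteasome, -0.08 for chaperones and -0.03 for all tested records. Without replicate 4E they became 0.01, 0.07 and 0.06, so the sign of the medians rested on that library. Still 0 of 46 passed then, of 16 records in all.

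The HSC70-like record (28374366) lay toward higher values under AGN193109 with and without that library. It was at 69.1, 73.0 and 96.1 FPKM in vehicle and 80.7, 93.8 and 118 with AGN193109, the highest being 4E. The groups overlapped, and the difference was 0.26 ± 0.11 (adjusted p = 0.538; without 4E, 0.307). The abundant DnaJ record 27503356 was at 266, 294 and 309 FPKM in vehicle, and the 7 AGN193109 libraries other than 4E were at 305, 362 and 409. Replicate 4E was at 89.2 FPKM. With all libraries its difference was 0.03 ± 0.20 (adjusted p = 0.976), and without 4E it was 0.27 and the adjusted p 0.0669, the lowest of any member in this comparison.

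The extremes under AGN193109 were records with means under 5 FPKM. Besides hsp30, which reached the limit through AGN193109 libraries, a record of a Rab and DnaJ domain-containing protein differed by 0.29 ± 0.23 (SE). The lowest values were -0.78 ± 0.42 for a CCT-like oocyte clone and -0.64 ± 0.34 for HSF-binding protein 1. Without 4E these were 0.47, -0.58 and -0.55, and without vehicle 2D the last was -0.37. Proteasome records ran from -0.27 ± 0.22 (50925270) and -0.21 ± 0.18 (66910701) to 0.13 ± 0.16 for ATPase subunit 6 and 0.27 ± 0.32 (50603941). Without 4E these 4 were 0.00, -0.02, 0.20 and 0.33, and without vehicle 4D the last was -0.09. The heat shock factors were at -0.06 ± 0.10 (HSF2) and -0.41 ± 0.33 (HSF1), and HSP90 beta at -0.19 ± 0.20. Without 4E these became -0.01, -0.05 and 0.02.

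For TTNPB against AGN193109, 0 of 46 members passed with all libraries, where 1.08% of all tested records did. At an unadjusted p under 0.05 there were 1 proteasome and 3 chaperone records, against 1518 in all. Medians were 0.18 for the proteasome, 0.18 for chaperones and 0.04 for all tested records, and without 4E 0.06, 0.01 and -0.05. The proteasome extremes were 0.58 ± 0.28 for ATPase subunit 2 and -0.07 ± 0.18 for the Pad1 homolog, with 0.34 ± 0.32 for record 50603941 and 0.08 ± 0.16 for ATPase subunit 6 next to them. Without 4E these were 0.46, -0.14, 0.27 and 0.01. Among chaperones the CCT-like oocyte clone was at 0.56 ± 0.42 and CCT record 27924344 at 0.41 ± 0.27, while the HSC70-like record was at -0.20 ± 0.11. Without 4E they were 0.37, 0.08 and -0.15, and without TTNPB 4E the clone was at 0.25.

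The library AGN193109 4E lowered the members unequally. Set against the median of the other 3 AGN193109 libraries of clutch E, the members had a median of 31.4% of their level, chaperones 29.7% and proteasome records 48.6%, and all tested records 48.9%. It was the lowest of all 24 libraries for 28 of 34 chaperone records and 6 of 12 proteasome records, and for 51.3% of all tested records. For the CCT-like oocyte clone this rests on 2.73e-20 FPKM against 3.03e-13 in AGN193109 2E. These sets are not matched for level: the median of the record means was 21.2 FPKM for chaperones, 11.15 for the proteasome and 5.18 for all tested records. In 4E the 10 highest records held 79.2% of the total FPKM, against 44.1 to 62.8% elsewhere. HSP90 beta was at 30.2%, HSF1 at 1.65% (0.145 FPKM, where the lowest of the remaining libraries had 2.69) and the T-complex protein 10A-like clone at 8.68%. T-complex protein 10A shares its name with the CCT subunits but is not one of them.

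Other members kept their level in that library. The HSC70-like record stood at 140%, BiP at 113%, the record described as a dnaJ homolog (28422710) at 112% and the alpha 4 subunit at 105.1%, and HSF2 was at 74.4%. Records of 1 family parted: HSC70 was at 65.3% and the HSC71-like clone at 29.0%, and the 2 HSP60 records were at 25.7% and 78.3%. This is a single library with no replicate, and what sets it apart was not tested.

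**Figure D4:**
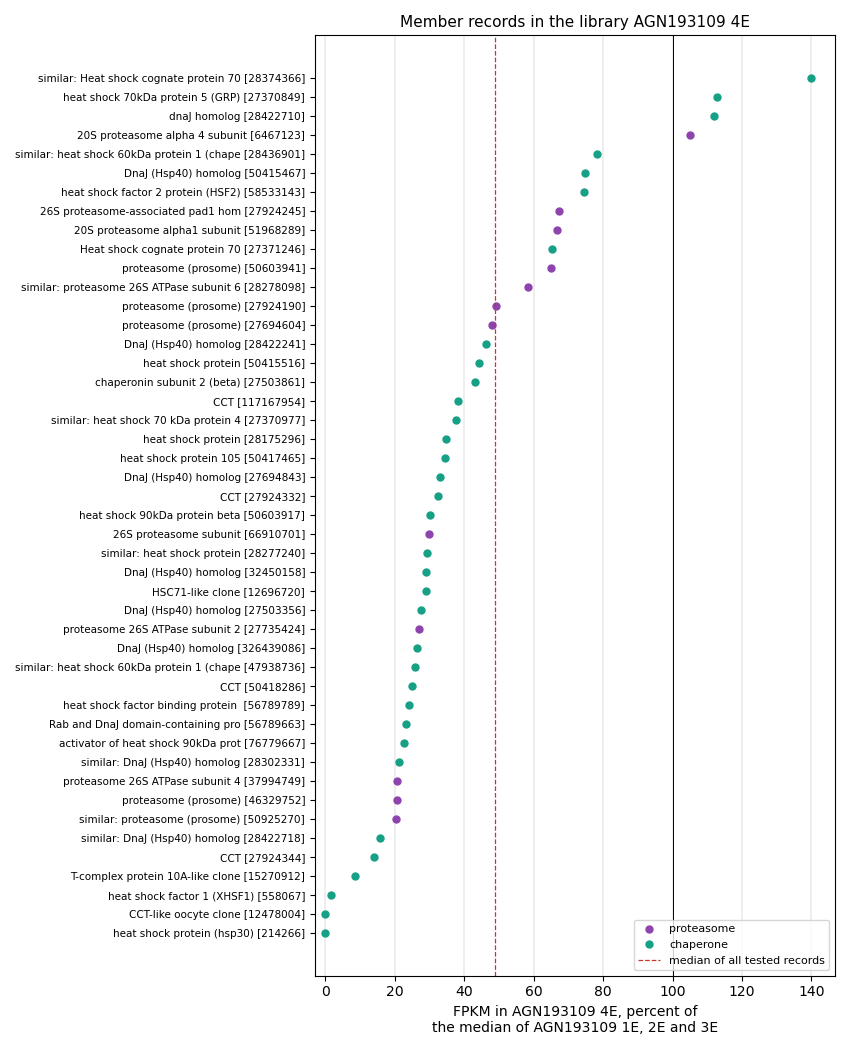
FPKM of each member in AGN193109 4E as a percentage of the median of AGN193109 1E, 2E and 3E, in increasing order, proteasome in purple and chaperones in green; the dashed line at 48.9% is the median of all tested records. Of the 46 records 34 lie under 50%, and 4 lie above 100%: the HSC70-like record, BiP, dnaJ homolog 28422710 and alpha 4.

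Many more members differed between the clutches than between exposures. Between clutch E and clutch D, 8 of 12 proteasome and 9 of 34 chaperone records passed, where 31.9% of all tested records did (28.1% lower in E and 3.73% higher). Chaperones thus differed about as often as the table as a whole, at 26.5%. In the proteasome 3 records were higher in E and 5 lower, and among chaperones 1 was higher and 8 lower. All tested records had a median of -0.20, proteasome records -0.32 and chaperones -0.13. Upper-quartile scaling took the median of all records to -0.01, and then 27.7% passed, with 3 proteasome records higher and 4 lower and 4 chaperones higher and 4 lower. Without AGN193109 4E, 9 proteasome and 14 chaperone records passed (4 of the latter higher), of 39.6% in all, and with vehicle libraries alone 1 and 4, of 17.0%.

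HSP60 gave the clearest difference. One record (47938736) ranged from 33.8 to 48.4 FPKM in clutch D (median 43.7, n = 12) and from 7.88 to 33.0 in clutch E (median 26.8), with AGN193109 4E lowest. The other (28436901) ranged from 27.1 to 38.9 FPKM in D (median 31.8) and from 13.7 to 25.8 in E (median 21.2). Neither overlapped between the clutches, which held for 3 of 46 members and for 3.63% of all tested records. The remaining one was proteasome record 27694604, at 35.2 to 50.2 FPKM in D and 16.2 to 35.0 in E. The log2 differences were -0.74 ± 0.15 and -0.65 ± 0.09 (SE; limma, adjusted p = 7.05e-04 and 5.57e-06) for HSP60 and -0.34 ± 0.10 (adjusted p = 0.0108) for the proteasome record. Within the libraries of total under 750000 FPKM the HSP60 differences were -0.35 and -0.55 (adjusted p = 0.0145 and 0.00331), and the proteasome record's -0.22 did not pass (0.0684). After upper-quartile scaling both HSP60 records passed (limma, adjusted p = 3.48e-04 and 3.72e-04) and the proteasome record did not (0.231). In clutch D the HSP60 record 47938736 was at 43.1 to 48.4 FPKM in the libraries of higher total and 33.8 to 39.4 in those of lower total, and the part of the total in its clutch difference was not tested further.

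The alpha subunits of the 20S proteasome differed in opposite directions with all libraries. Alpha 4 was at 43.9 to 129 FPKM in clutch D (median 72.8) and 27.4 to 60.5 in clutch E (median 36.4), a difference of -0.94 ± 0.17 (adjusted p = 1.63e-04). Alpha 1 was at 9.51e-06 to 8.28 FPKM in D (median 3.39) and 4.08 to 10.6 in E (median 6.78), a difference of 1.06 ± 0.32 (adjusted p = 0.0144), and it overlapped between clutches. With vehicle libraries alone the alpha 1 difference was 0.57 and did not pass (adjusted p = 0.393), while that of alpha 4 was -1.09 (0.0157). Alpha 4 moved with the total FPKM of a library. In clutch D it was 61.1 to 129 FPKM in the 8 libraries of higher total and 43.9 to 52.2 in the 4 of lower total, and in clutch E it was 27.4 to 43.6 in the 10 of lower total and 60.5 and 37.1 in AGN193109 2E and 4E, of higher total. Among the lower totals alone the clutch difference of alpha 4 was -0.49 (adjusted p = 0.0154), and its part in the larger value was not tested further.

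**Figure D5:**
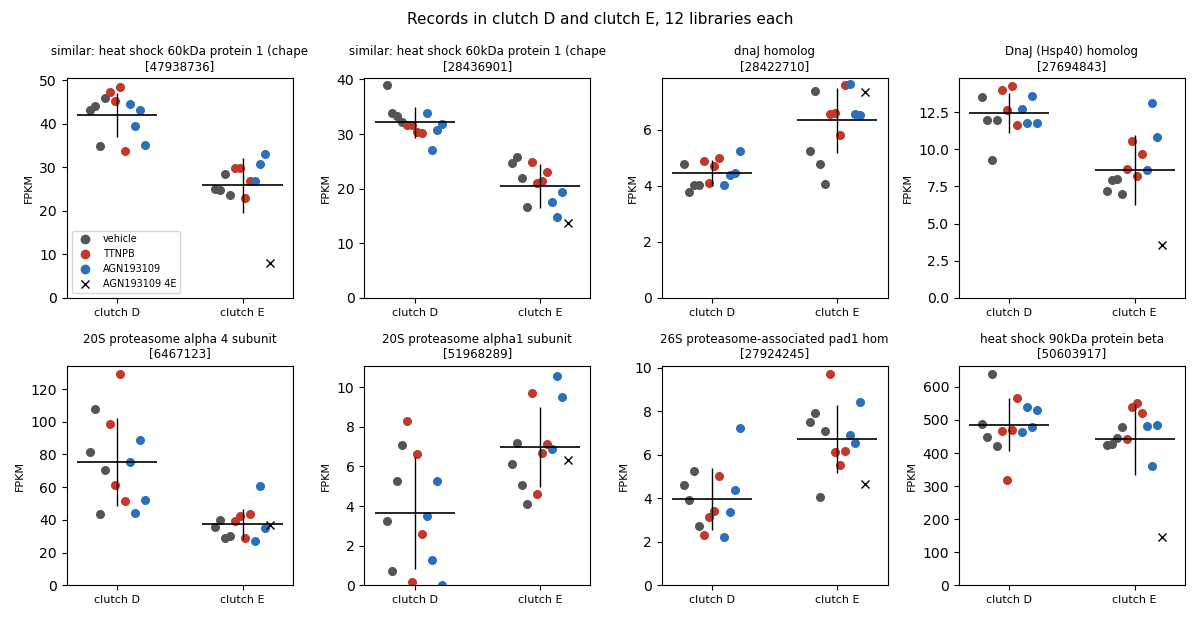
FPKM of 8 members in clutch D and clutch E, 12 libraries each, coloured by exposure with AGN193109 4E as a cross; bars are mean and SD over all 12. Both HSP60 records separate the clutches, alpha 4 is lower and alpha 1 and the Pad1 homolog higher in clutch E, and HSP90 beta overlaps.

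In the 19S particle the Pad1 homolog was higher in clutch E. It was at 2.21 to 7.22 FPKM in D (median 3.66) and 4.07 to 9.71 in E (median 6.72), a difference of 0.66 ± 0.15 (adjusted p = 0.0015), and it did not pass with vehicle libraries alone (0.57, adjusted p = 0.122) or within the lower totals (0.39, 0.185). The ATPase subunits did not pass, subunit 4 at -0.44 ± 0.18 (adjusted p = 0.0623; without 4E, -0.27 and 0.00654), subunit 6 at -0.29 ± 0.13 and subunit 2 at 0.12 ± 0.23. Of the records of unstated subunit, 50603941 was higher (0.79 ± 0.26) and 27694604, 46329752, 50925270 and 66910701 were lower, by -0.34 to -0.60. After upper-quartile scaling 27694604 did not pass (limma, adjusted p = 0.231), and the other lower records had adjusted p of 0.0277 to 0.0479.

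Among DnaJ partners, record 27694843 was lower in clutch E and the dnaJ homolog 28422710 higher. The first was at 9.28 to 14.2 FPKM in D (median 12.3) and 3.57 to 13.1 in E (median 8.37), a difference of -0.52 ± 0.13 (adjusted p = 0.00263). The second was at 3.76 to 5.25 FPKM in D (median 4.41) and 4.05 to 7.64 in E (median 6.55), a difference of 0.42 ± 0.09 (adjusted p = 5.86e-04). For both records most clutch D values lay inside the range of clutch E. Record 27694843 also differed by total within clutch D, at 11.9 to 14.2 FPKM in the higher and 9.28 to 11.8 in the lower totals, and among the lower totals its clutch difference was -0.28 (adjusted p = 0.0453). The further chaperones that were lower in E were 2 CCT records (27924332, -0.46 ± 0.14, and 117167954, -0.38 ± 0.13), the HSPA4-like HSP110 record (-0.57 ± 0.17), heat shock protein record 28175296 (-0.53 ± 0.14) and DnaJ record 50415467 (-0.38 ± 0.12). After upper-quartile scaling only 28175296 of these 5 passed (adjusted p = 0.0158), the others having adjusted p of 0.0583 to 0.201.

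Neither HSP90 beta nor an HSP70 record passed with all libraries. HSP90 beta was at -0.18 ± 0.16 (adjusted p = 0.42). In clutch D it was at 530 to 639 FPKM in the 4 libraries of lower total and 318 to 488 in the 8 of higher total, and in clutch E at 425 to 552 in the 10 of lower total, so this value mixes total and clutch. Among the lower totals alone the HSP90 beta difference was -0.26 and passed as lower in E (limma, adjusted p = 0.0303). The 4 HSP70 records were between -0.08 and 0.05, with adjusted p of 0.535 to 0.945. HSF2 was at 0.18 ± 0.08 (adjusted p = 0.0897; without 4E, 0.00869, higher in E) and HSF1 at -0.04 ± 0.27. HSF-binding protein 1 was at -0.71 ± 0.28 (adjusted p = 0.0564), a value that includes the high vehicle and TTNPB 2D libraries.

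Of the 17 calls, 16 passed with each single library left out, the exception being CCT record 117167954, not called without vehicle 1D or 1E or AGN193109 3D or 4D (highest adjusted p 0.0584). With upper-quartile scaling 12 of the 17 passed, within the lower totals 8 and with vehicle libraries alone 5. The 4 that passed under all alternatives run were both HSP60 records, alpha 4 and DnaJ 27694843. Clutch E and clutch D are 1 sibship each, so the difference is between these clutches.

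Among the genes around these machines, outside the rule, calls between the clutches were lower in E with all libraries, where 28.1% of all tested records passed as lower. Of 17 records described as ubiquitin-activating or -conjugating enzymes or their relatives, 9 passed as lower and 0 as higher (median -0.49), and 7 lower after upper-quartile scaling. The largest was ubiquitin-conjugating enzyme E2D 2 at -1.49 ± 0.11 (adjusted p = 3.7e-10). Of the 4 co-chaperones 3 were lower, CDC37 (-0.42 ± 0.10), which brings kinases to HSP90, and 2 records of stress-induced phosphoprotein 1 (-0.67 ± 0.13 and -0.61 ± 0.12), which links HSP70 to HSP90; all 3 also passed after that scaling. Of the proteasome genes named only by an NCBI gene number 4 of 10 were lower, and of such chaperone genes 4 of 13, and after the scaling 1 and 2 were lower and 2 and 2 higher, with medians of 0.01 and 0.07. Of 3 HSP70 and proteasome records described in other words, BiP among them, none passed, and 2 were higher after the scaling. Of the 7 endoplasmic reticulum folding records 3 were lower, and after the scaling 2 were lower and 2 higher. The 2 records of proteasome shuttle factors, RAD23 homolog B and ubiquilin 2, were lower, and 0 passed after the scaling. With all libraries none of these records passed for either exposure against vehicle.

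Whether a response differed between the clutches was tested by the interaction of exposure and clutch. None of the 46 members passed for TTNPB or for AGN193109, nor did any tested record (0.00%; limma), while 509 and 1115 of all records and 0 members had an unadjusted p under 0.05. The intervals are wide: for TTNPB they lay inside a 2-fold difference in FPKM + 1 for 6 of 12 proteasome and 21 of 34 chaperone records. For BiP the TTNPB difference from vehicle was 0.30 in clutch D alone and 0.42 in clutch E alone.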

How the data were processed

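Per the labels' protocols, RNA of pooled embryos was amplified (NuGEN Ovation V2) and made into SOLiD fragment libraries. TopHat, Bowtie and Cufflinks are named in the submitters' processing notes, without versions, and the genome is not stated in the sources at hand. The values are FPKM as the authors deposited them, which hold no depth. The labels speak of 5 replicates per clutch, and 4 were analysed here. Values were taken to log2(FPKM + 1), which understates changes of low records, and the 19635 records with a mean of at least 1 were fitted with limma 3.58.1 (R 4.3.3, trended empirical Bayes) with exposure and clutch as terms. Benjamini-Hochberg adjustment ran over all of them, with a threshold of 0.05. The fit was tested on simulated data. The members and lists were chosen with earlier results of these data known, and the groups within them were redrawn after the descriptions were read. Records given by gene number were named through the RefSeq table of Xenopus_laevis_v10.1. Records were named in the text if they passed (up to 10 per direction), or else were the 2 highest and 2 lowest per module, led their group, or belonged to the HSP70, HSP90 or HSF families; no DnaJ B record could be told from its description. *xbp1*, Sec61 alpha 1, calnexin and the records singled out for AGN193109 4E were chosen after their values were seen.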

Additional observations from a re-analysis of the deposited data

Results flagged for a closer look

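Within an exposure of 8 libraries, 25 member values stood so far from the others that the gap took more than 0.526 of the group's range, Dixon's 95% limit for 8 values. Of 138 groups examined, chance would flag about 1 in 20. In AGN193109 replicate 4E 12 values were low: HSP90 beta at 146 FPKM, DnaJ records 27503356, 32450158, 28422718 and 326439086 at 89.2, 22.5, 10.2 and 11.46, the HSC71-like clone at 58.6, the activator of HSP90 ATPase at 16.05, CCT record 27924332 at 8.17, chaperonin subunit 2 at 7.75, heat shock protein-like record 28277240 at 7.02, the T-complex protein 10A-like clone at 0.388 and HSF1 at 0.145 FPKM.

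Of the 13 others, all were high. In vehicle 3D these were HSP90 beta at 639, BiP at 44.0 and ATPase subunit 4 at 35.8 FPKM. HSF-binding protein 1 was at 24.7 FPKM in vehicle 2D and 12.04 in TTNPB 2D, and hsp30 was at 4.83 in vehicle 2E and 15.0 in AGN193109 3E. The CCT-like oocyte clone was at 14.3 FPKM in TTNPB 4E and 5.92 in AGN193109 3E. Proteasome records 27924190 and 50603941 were at 21.6 in AGN193109 1E and 21.3 in TTNPB 2E, DnaJ record 28422241 was at 10.4 in TTNPB 2D and dnaJ homolog 28422710 at 7.37 in vehicle 2E.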

How the results depend on the processing

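Alternatives were upper-quartile or quantile scaling, a pseudocount of 0.1, the low-value filter dropped or raised to 5 FPKM, no clutch term, the replicate block, only the groups compared, each clutch alone, clutch means as replicates and each library left out, and, chosen after seeing the data, the libraries of total under 750000 FPKM and upper-quartile scaling without AGN193109 4E. The counts of 0 for TTNPB or AGN193109 against vehicle and of proteasome records between the agents stayed at 0 in all 37, as did both interactions in the 24 leave-outs run. Between the agents BiP was called, 1 chaperone record, in both added alternatives and without TTNPB 2D or AGN193109 4E, so leave-outs ran from 0 to 1. For the clutches, vehicle libraries alone gave 1 proteasome and 4 chaperone records, and leave-outs ran from 8 to 9 and from 8 to 14. The activator of HSP90 ATPase changed from -0.09 to 0.24 (adjusted p = 0.0119, higher in E) with upper-quartile scaling without 4E; the cause was not tested. Numbers did not pair the libraries (same-number correlations -0.11 to 0.12, median 0.0039): with the replicate block 144, 3 and 191 of all records passed in the 3 exposure comparisons, and 0 members in each. Of the differences of single uncalled members many changed sign, 79 times for AGN193109 against vehicle. FPKM give no depth, and low records near 1 FPKM could not show small changes.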
